A study of Mus musculus with 4 samples.

Results

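The genes described here encode RNA polymerase I and the nucleolar machinery that makes ribosomes. They were 41 genes, taken by symbol from a list of polymerase subunits, nucleolar proteins, small nucleolar ribonucleoproteins (snoRNPs), subunit assembly factors and suppliers of nucleotides. All 41 were found among 24497 gene rows. RNA was sequenced from cultured leukaemia cells of the myeloid lineage, which had been made from haematopoietic stem cells of mouse bone marrow by adding NRAS and AE9a, an oncogenic splice variant of AML1-ETO. The Tet2 KO group came from Tet2-/- mice lacking exon 3 of Tet2, a gene for a 5-methylcytosine dioxygenase, and the WT group came from wild-type mice, with 2 libraries in each group. Both groups carried NRAS and AE9a. The RPMI culture medium of both held 10 ng/ml of IL-3, 10 ng/ml of IL-6, 50 ng/ml of stem cell factor, 2 µg/ml of puromycin and 1 mg/ml of G418. Separate mice or cultures are not named for the libraries of a group. The p-values therefore cover only the spread among these 4 libraries, and that spread may be technical.

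Ribosome production starts in the nucleolus, where RNA polymerase I transcribes the long precursor of most ribosomal RNAs. While that precursor is made, box C/D and box H/ACA snoRNPs guide its methylation and pseudouridylation, and separate sets of assembly factors fold, cut and export the small and large subunits. In growing blood cells the genes for these factors are well known targets of the transcription factor Myc, and mutations of the nucleophosmin gene are common in human acute myeloid leukaemia.

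Expression was given as TPM, a level per transcript length that sums to the same total in every library, so sequencing depth is unknown. Tet2 itself was at 16.98 and 16.95 TPM in the Tet2 KO libraries, against 16.62 and 16.98 TPM in the WT libraries. Its log2 fold change was 0.01 on this deposited scale (adjusted p = 0.868 by limma). After the median-ratio scaling described below it was -0.23 (adjusted p = 0.00831 by limma). Tet2 was also called lower under each of the other scalings described there. Gene-level values cannot show the loss of a single exon. Ptprc, which marks blood cells, lay between 176.45 and 229.57 TPM in the 4 libraries, and all 11 haematopoietic and myeloid markers were detected, of which 5 rose and 6 fell on the deposited scale, against 3 higher and 7 lower after the median-ratio scaling described below. Of 13 markers of other cells, 12 were at or below 0.36 TPM in every library. The exception was the globin gene Hbb-bt, an erythroid marker, at 298.3 and 300.91 TPM in Tet2 KO cells and 78.68 and 70.65 TPM in WT cells. The progenitor marker Kit was at 201.19 and 209.41 TPM in Tet2 KO cells and 11.63 and 11.99 TPM in WT cells, and the myeloid granule gene Lyz2 was at 7575 and 7652 TPM in Tet2 KO cells and 19231 and 19239 TPM in WT cells. Mpo, another myeloid granule gene, was at 152.59 and 160.65 TPM in Tet2 KO cells and 92.06 and 91.51 TPM in WT cells. The part of these marker differences in the results that follow was not tested. In bulk RNA, fewer cells of a type and less RNA per cell cannot be told apart.

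The ribosome biogenesis genes split between both directions in Tet2 KO cells, and the split depended on how the libraries were scaled. On the deposited TPM, 16 of the 41 genes were higher in Tet2 KO and 11 were lower by limma at an adjusted p under 0.05, and 14 did not pass. These are 39.0% and 26.8% of the 41 genes, beside 54.4% and 19.5% of all 11452 genes tested. The median log2 fold change of the 41 genes was 0.06, beside 0.23 over all tested genes. Changes were small. The log2 fold changes ran from -0.69 to 0.59, and 0 of the 41 genes changed by 2-fold or more, beside 9.04% of all tested genes.

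Because the median gene was shifted by 0.23 on the deposited scale, the same test was run after median-ratio scaling, which sets that median close to 0. Relative to the median gene, 6 of the 41 genes (14.6%) were higher in Tet2 KO and 25 (61.0%) were lower, beside 32.7% higher and 34.8% lower over all tested genes. The median of the 41 genes was then -0.19. Quantile normalization gave 7 higher and 19 lower, beside 34.2% and 32.7% of all tested genes. Scaling to the summed spike-in RNAs gave 5 higher and 25 lower, beside 29.6% and 37.8%. The other 2 scalings added corrections for GC content and for transcript or coding length to the median-ratio scaling, and gave 5 or 7 higher and 28 lower. Over all 6 scalings, 4 genes were called higher each time (Polr1c, Npm1, Wdr43 and Ddx10) and 11 were called lower each time (Polr1e, Rrp9, Nop10, Nhp2, Bop1, Nop2, Nop16, Mrto4, Ebna1bp2, Nme1 and Cad). The call of the other 26 differed between scalings. The share of all tested genes called the same way under all 6 scalings was not computed. These lists therefore have no background beside them and are not shown to be particular to the 41 genes. A log2 fold change below is on the deposited log2(TPM + 1) scale, which understates changes of low genes, unless it is named as relative to the median gene.

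**Figure D1:**
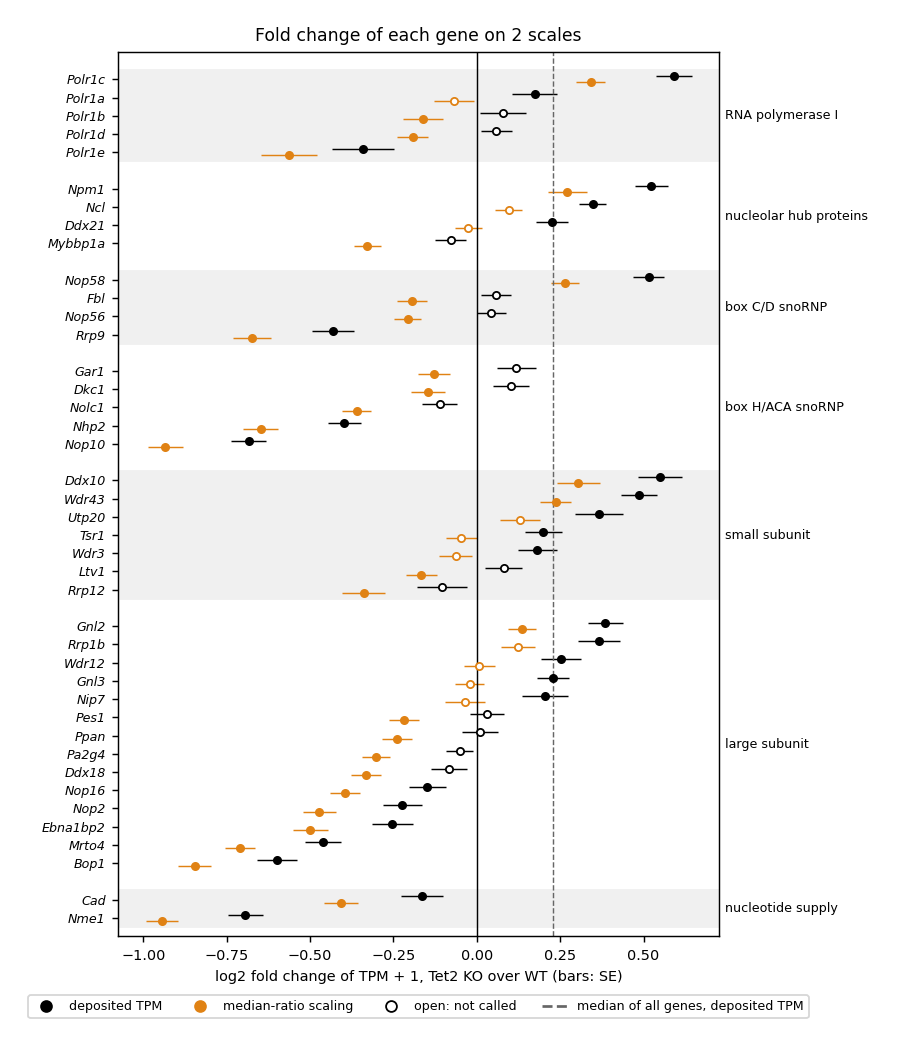
Log2 fold change of each of the 41 genes, Tet2 KO over WT, grouped by role, on the deposited scale and relative to the median gene (2 libraries per group). Bars show the standard error from limma, open points did not pass, the dashed line is the median of all tested genes on the deposited scale, and the rescaled values sit about 0.25 lower than the deposited ones, from -0.94 to 0.34.

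All 41 genes reached 1 TPM in all 4 libraries. Their mean levels ran from 6.83 TPM for Polr1e to 1246 TPM for Npm1, with a median of 61.1 TPM, and 12 genes were above 100 TPM. On the deposited scale their summed TPM was 4493 and 4365 in Tet2 KO and 3881 and 3975 in WT. Npm1, the most abundant gene, contributed the most to this higher sum in Tet2 KO. Median-ratio scaling divides the Tet2 KO libraries by 1.08 and 1.10 and the WT libraries by 0.909 and 0.923. After that division the sum was lower in both Tet2 KO libraries than in both WT libraries. The groups did not overlap for 39 of the 41 genes, 23 higher and 16 lower in Tet2 KO, beside 62.4% higher and 24.4% lower of all tested genes. Libraries of a group lay close together for these genes, with a median absolute log2 difference of 0.05 in Tet2 KO and 0.0513 in WT.

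**Figure D2:**
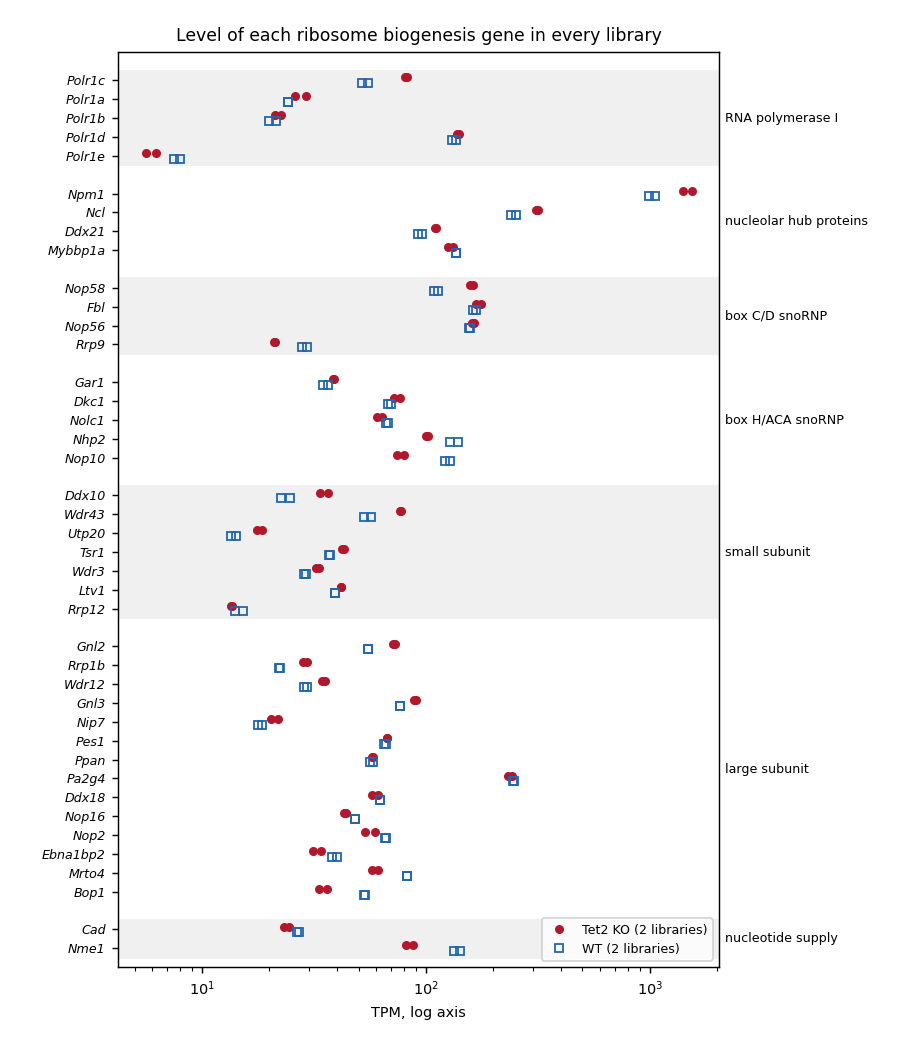
Expression of the 41 genes in TPM on a log axis in every library, with Tet2 KO and WT points for each gene grouped by role. Levels span from 5.6 TPM (Polr1e) to 1536 TPM (Npm1), and the libraries of a group lie close together.

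The promoters of 4 genes are shown because they hold motifs of factors known to act on growth genes and because the genes moved in different directions. Each is the 250 bases before the RefSeq start on build GRCm38.p6, read 5′ to 3′ on the gene's strand, and capitals mark a match on either strand to any of CACGTG (the E-box bound by Myc), CCGGAAG (an ETS family motif), TCGCGA (the core of the ZBTB33 motif) or GCGCATG (the core of the NRF1 motif). Polr1c, which rose, lies at chr17:46248046-46248295 on the minus strand. Nop58, which rose on the deposited scale, lies at chr1:59684756-59685005 on the plus strand. Nhp2, which fell, lies at chr11:51619523-51619772 on the plus strand. Nop2, which also fell, lies at chr6:125131633-125131882 on the plus strand.
Polr1c: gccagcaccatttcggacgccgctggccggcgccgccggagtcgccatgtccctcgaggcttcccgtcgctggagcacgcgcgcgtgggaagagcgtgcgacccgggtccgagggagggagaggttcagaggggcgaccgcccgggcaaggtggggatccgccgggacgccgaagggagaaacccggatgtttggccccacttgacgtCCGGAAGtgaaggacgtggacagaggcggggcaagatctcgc
Nop58: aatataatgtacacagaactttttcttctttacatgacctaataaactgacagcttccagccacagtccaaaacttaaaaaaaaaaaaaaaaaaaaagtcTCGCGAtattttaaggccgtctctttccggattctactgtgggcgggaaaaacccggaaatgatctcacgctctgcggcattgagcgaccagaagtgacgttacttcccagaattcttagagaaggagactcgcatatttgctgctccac
Nhp2: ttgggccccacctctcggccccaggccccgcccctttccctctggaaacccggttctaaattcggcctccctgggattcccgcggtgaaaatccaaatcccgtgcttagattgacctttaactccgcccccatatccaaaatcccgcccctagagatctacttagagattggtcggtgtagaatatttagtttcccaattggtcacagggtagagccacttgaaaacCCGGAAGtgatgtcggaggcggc
Nop2: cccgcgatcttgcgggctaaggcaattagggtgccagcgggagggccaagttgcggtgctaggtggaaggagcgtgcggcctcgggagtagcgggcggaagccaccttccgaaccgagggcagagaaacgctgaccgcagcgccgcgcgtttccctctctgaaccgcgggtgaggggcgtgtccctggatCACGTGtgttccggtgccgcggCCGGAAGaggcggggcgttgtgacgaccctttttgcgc
The ETS motif started 42 bases before the RefSeq start of Polr1c, 23 before that of Nhp2 and 38 before that of Nop2. Gene coordinates given below follow GENCODE, whose start of Nhp2 lies upstream of this motif. The E-box of Nop2 started 60 bases before its start, and TCGCGA lay 150 bases before the start of Nop58. CCGGAAG therefore stood before the RefSeq start of genes that rose and of genes that fell.

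Of the 41 genes, 36 had a promoter in the RefSeq table, and Bop1, Gnl2, Fbl, Npm1 and Rrp12 had no entry. In windows from 250 bases before to 50 after the start, CACGTG was present in 8 of 36 (22.2%), beside 12.1% of 8905 tested genes and 8.09% of all 27025 genes in the table. CCGGAAG was present in 13 of 36 (36.1%), beside 21.5% of tested genes and 9.93% of all genes. TCGCGA was present in 4 of 36 (11.1%), beside 5.86% and 2.86%. GCGCATG was present in Dkc1 alone (2.78%), beside 8.31% and 4.41%. Of the 8 genes with CACGTG, 3 were higher, 2 were lower and 3 did not pass on the deposited scale. Of the 13 with CCGGAAG, 5 were higher, 4 were lower and 4 did not pass. Of the 4 with TCGCGA (Mybbp1a, Nop58, Polr1c and Tsr1), 3 were higher, none was lower and 1 did not pass. Over all tested genes 54.4% were higher and 19.5% lower on that scale. Relative to the median gene Nop58 and Polr1c were higher, Mybbp1a was lower and Tsr1 did not pass. With the transcript length correction Nop58 was lower too. A match of these letters is not evidence of binding.

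The RNA polymerase I subunits moved apart from each other. The shared assembly subunit Polr1c rose, the polymerase I-specific subunit Polr1e fell, and the other 3 showed smaller differences whose call or direction depended on the scaling. Polr1c (chr17:46243920-46248054), which RNA polymerases I and III share, was at 80.24 and 82.23 TPM in Tet2 KO cells versus 52.07 and 55.2 TPM in WT cells. Both Tet2 KO libraries were above both WT libraries, and the log2 fold change was 0.59 with a standard error of 0.05 (adjusted p = 5.03e-08 by limma). Relative to the median gene it was 0.34 (adjusted p = 0.000204 by limma), and over all alternatives the adjusted p ran from 5.53e-10 to 0.000309. Its partner in the shared assembly dimer, Polr1d, was at 140.26 and 137.54 TPM in Tet2 KO cells and 136.46 and 130.32 TPM in WT cells, a log2 fold change of 0.06 (adjusted p = 0.259 by limma). Polr1d was not called on the deposited scale, and relative to the median gene it was lower, at -0.19 (adjusted p = 0.00598 by limma, 0.000169 to 0.766 over all alternatives). With the transcript length correction Polr1d was at 0.06 and did not pass, and with the coding length correction it was called higher, at 0.10 (adjusted p = 0.0313 by limma).

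Polr1e (chr4:45018583-45036565), known as PAF53, was the least expressed of the 41 genes. It was at 5.6 and 6.22 TPM in Tet2 KO cells versus 7.98 and 7.53 TPM in WT cells. Both Tet2 KO libraries were below both WT libraries, with a log2 fold change of -0.34 and a standard error of 0.09 (adjusted p = 0.00359 by limma). The largest subunit, Polr1a, which holds the catalytic site with Polr1b, was at 25.89 and 29.14 TPM in Tet2 KO cells and 24.21 and 24.25 TPM in WT cells. Its log2 fold change was 0.17 (adjusted p = 0.0286 by limma), but it did not pass when Tet2 KO replicate 2, WT replicate 1 or WT replicate 2 was left out (adjusted p = 0.211, 0.116 and 0.110 by limma), and its log2 fold change was 0.092 without Tet2 KO replicate 2. Relative to the median gene Polr1a was at -0.07 (adjusted p = 0.335 by limma, the highest over all alternatives, the lowest being 0.000398 for a fall with the transcript length correction). Polr1b was at 21.08 and 22.63 TPM in Tet2 KO cells and 19.84 and 21.43 TPM in WT cells, and these groups overlapped (log2 fold change 0.08, adjusted p = 0.307 by limma, and -0.16 relative to the median gene).

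A TPM ratio of 2 genes in the same library does not depend on a factor applied to that whole library, so ratios between partners were also taken. Quantile normalization and the length and GC corrections act per gene and do change such ratios. They were chosen after the values of the genes had been seen, and are given without a test, since 2 libraries against 2 cannot reach an exact permutation p below 0.333. Of 13 ratios, 10 did not overlap between the groups, and 8 of those 10 kept one direction in the difference of the log2 fold changes under all 6 scalings. The deposited, median-ratio and spike-in scales differ only by a factor per library, so they give nearly the same difference. The share of other gene pairs that do not overlap was not computed. Of all tested single genes, 62.4% did not overlap with Tet2 KO higher and 24.4% with Tet2 KO lower. The ratio of Polr1c to Polr1d was 0.572 and 0.598 in Tet2 KO, against 0.382 and 0.424 in WT. The ratio of Polr1e to Polr1a was 0.216 and 0.213 in Tet2 KO, against 0.330 and 0.311 in WT. Both differences kept their direction under all 6 scalings. The gap in log2 fold change between Polr1e and Polr1a was -0.52 on the deposited scale, but shrank to -0.19 with the transcript length correction and -0.25 with the coding length correction. That between Polr1c and Polr1d ran from 0.37 to 0.53. The ratio of Polr1d to Polr1a overlapped, at 5.42 and 4.72 in Tet2 KO and 5.64 and 5.37 in WT.

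**Figure D3:**
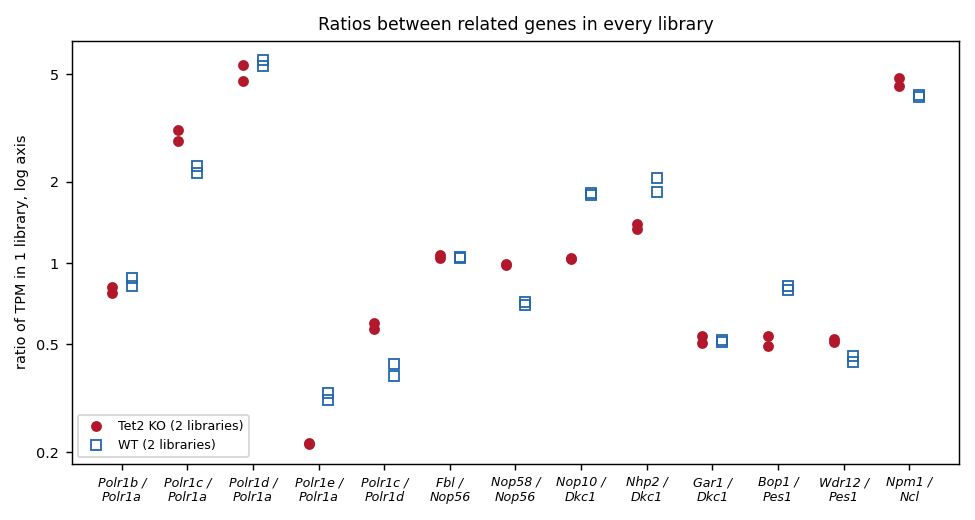
Ratios of TPM between related genes in every library, Tet2 KO beside WT, for 13 pairs chosen after the values had been seen. The groups are apart for 10 pairs, among them Nop10 to Dkc1 at about 1.04 in Tet2 KO and about 1.8 in WT, and overlap for Polr1d to Polr1a, Fbl to Nop56 and Gar1 to Dkc1.

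Of 4 abundant nucleolar proteins, 3 were higher and none was lower on the deposited scale, led by nucleophosmin, against 1 higher and 1 lower relative to the median gene. Over all tested genes 54.4% were higher on the deposited scale and 32.7% relative to the median gene. Npm1 (chr11:33152287-33163206), a histone and ribosome chaperone of the granular nucleolus, was at 1536.06 and 1403.17 TPM in Tet2 KO cells versus 986.32 and 1057.43 TPM in WT cells. The groups were apart, with means of 1470 ± 94.0 TPM in Tet2 KO and 1022 ± 50.3 TPM in WT (SD, n = 2 each) and a log2 fold change of 0.52 (adjusted p = 1.28e-05 by limma). Relative to the median gene it was still higher, at 0.27 (adjusted p = 0.00414 by limma, the highest over all alternatives). The annotation holds 8 pseudogene copies of Npm1 with at least 90% identity over at least 200 bases, none of them a row of the table, so reads may have been divided and its level is uncertain. Nucleolin, Ncl, which helps rRNA transcription and folding, was at 316.54 and 311.49 TPM in Tet2 KO cells and 239.86 and 253.7 TPM in WT cells. It rose by 0.35 on the deposited scale (adjusted p = 1.25e-06 by limma), was at 0.10 relative to the median gene (adjusted p = 0.0671 by limma, 5.34e-08 to 0.368 over all alternatives) and fell by 0.20 with the transcript length correction.

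The nucleolar helicase Ddx21 was near the median of all genes, at 109.83 and 111.03 TPM in Tet2 KO cells and 92.53 and 96.2 TPM in WT cells. Its log2 fold change was 0.22 on the deposited scale (adjusted p = 0.000483 by limma) and -0.03 relative to the median gene. Mybbp1a, a nucleolar Myb-binding protein, was at 125.45 and 132.56 TPM in Tet2 KO cells and 136.78 and 135.58 TPM in WT cells. It did not pass on the deposited scale (log2 fold change -0.08, adjusted p = 0.139 by limma) but was lower relative to the median gene (-0.33).

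Within the box C/D snoRNP, which methylates rRNA, the core proteins Nop58 and Nop56 moved apart except with the transcript length correction. Nop58 (chr1:59684971-59719044) was at 162.25 and 157.11 TPM in Tet2 KO cells versus 109.19 and 113.68 TPM in WT cells, and the groups were apart. Its log2 fold change was 0.52 (adjusted p = 4.24e-08 by limma) and 0.26 relative to the median gene. It turned to -0.08 with the transcript length correction, for which its annotated transcript is unusually long, and was 0.14 with the coding length correction. Nop56 was at 163.83 and 159.79 TPM in Tet2 KO cells and 156.05 and 157.81 TPM in WT cells, a log2 fold change of 0.04 that did not pass (adjusted p = 0.37 by limma). The ratio of Nop58 to Nop56 was 0.990 and 0.983 in Tet2 KO, against 0.700 and 0.720 in WT. The gap in their log2 fold changes was 0.47 on the deposited scale and 0.36 with the coding length correction, but 0.02 with the transcript length correction, where Nop56 was at -0.10 beside -0.08 for Nop58.

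Fibrillarin, Fbl, the methyltransferase of these particles, was at 175.95 and 167.24 TPM in Tet2 KO cells and 163.02 and 166.71 TPM in WT cells. It did not pass on the deposited scale (log2 fold change 0.06, adjusted p = 0.257 by limma) but was lower relative to the median gene (-0.19). Its ratio to Nop56 overlapped between the groups, at 1.07 and 1.05 in Tet2 KO and 1.04 and 1.06 in WT. Rrp9 (chr9:106475963-106485424), a protein of the U3 snoRNP that helps cut the precursor, was at 21.28 and 20.9 TPM in Tet2 KO cells versus 29.55 and 28.08 TPM in WT cells. Rrp9 fell under every scaling tried, with a log2 fold change of -0.43 on the deposited scale (adjusted p = 1.18e-05 by limma).

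In the box H/ACA snoRNP, which turns uridine into pseudouridine, RNA of the small core proteins Nop10 and Nhp2 was lower while that of the enzyme, dyskerin, was not lower on the deposited scale. Of the 5 genes grouped here, the chaperone Nolc1 included, none rose and 2 fell on the deposited scale (19.5% of all tested genes fell). Relative to the median gene the 5 were lower without exception (34.8% of all tested genes). Under quantile normalization 3 were lower (32.7%), and 4 were lower with either the transcript or the coding length correction (35.4% and 36.6%). Nop10 (chr2:112261926-112263269) was at 79.56 and 74.5 TPM in Tet2 KO cells versus 121.11 and 127.62 TPM in WT cells. This was among the largest falls of the 41 genes, with means of 77.0 ± 3.58 TPM in Tet2 KO and 124 ± 4.6 TPM in WT (SD, n = 2 each) and a log2 fold change of -0.68 (adjusted p = 5.3e-09 by limma). Nhp2 (chr11:51619735-51623714), another core protein, was at 101.98 and 100.34 TPM in Tet2 KO cells versus 138.97 and 128.44 TPM in WT cells, with a log2 fold change of -0.40 (adjusted p = 2.21e-06 by limma). Both genes had non-overlapping groups and were lower under all 6 scalings.

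Dyskerin, Dkc1, the pseudouridine synthase that Nop10 and Nhp2 bind, was at 76.32 and 71.81 TPM in Tet2 KO cells and 67.56 and 70.17 TPM in WT cells. It did not pass on the deposited scale (log2 fold change 0.10, adjusted p = 0.0921 by limma) and was lower relative to the median gene (-0.15), as was Gar1 (-0.13). Gar1 was at 0.11 with the transcript length correction and 0.07 with the coding length correction, and passed with neither. The ratio of Nop10 to Dkc1 was 1.04 and 1.04 in Tet2 KO, against 1.79 and 1.82 in WT. The ratio of Nhp2 to Dkc1 was 1.34 and 1.40 in Tet2 KO, against 2.06 and 1.83 in WT. The gaps in log2 fold change to Dkc1 were -0.79 for Nop10 and -0.50 for Nhp2 on the deposited scale and shrank to -0.31 and -0.18 with the coding length correction. The fourth core protein, Gar1, had a ratio to Dkc1 that overlapped between the groups, at 0.506 and 0.539 in Tet2 KO and 0.513 and 0.520 in WT. Nolc1, a snoRNP chaperone also called Nopp140, was at -0.11 on the deposited scale, did not pass (adjusted p = 0.0697 by limma) but was lower relative to the median gene (-0.36).

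Of 7 small subunit factors, 5 rose and none fell on the deposited scale, while 2 rose and 2 fell relative to the median gene. The shares over all tested genes were 54.4% higher and 19.5% lower on the deposited scale, and 32.7% and 34.8% relative to the median gene, so the rescaled counts are near the background. Wdr43 (chr17:71615895-71659031), a protein of the small subunit processome, was at 77.55 and 76.4 TPM in Tet2 KO cells versus 52.92 and 56.57 TPM in WT cells. Ddx10 (chr9:53098635-53248053), an RNA helicase of small subunit rRNA processing, was at 36.42 and 33.58 TPM in Tet2 KO cells versus 22.61 and 24.62 TPM in WT cells. Both genes had non-overlapping groups and were higher under all 6 scalings. The log2 fold change of Wdr43 was 0.48 (adjusted p = 5.88e-07 by limma) on the deposited scale and 0.24 relative to the median gene. That of Ddx10 was 0.55 (adjusted p = 1.44e-06 by limma) and 0.30.

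The processome proteins Utp20 and Wdr3 and the late assembly factor Tsr1 rose by 0.37, 0.18 and 0.20 on the deposited scale, and were at 0.13, -0.06 and -0.05 relative to the median gene without passing. Wdr3 did not pass without WT replicate 1 or WT replicate 2 (adjusted p = 0.0579 and 0.0959 by limma), nor did Tsr1 without WT replicate 2 (adjusted p = 0.0540 by limma). Rrp12 and Ltv1, which take part in late maturation and export of the small subunit, were at -0.10 and 0.08 and did not pass, and both were lower relative to the median gene.

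Large subunit factors were divided, with 5 of 14 higher and 5 lower on the deposited scale, and 1 higher and 9 lower relative to the median gene (all tested genes 54.4% and 19.5%, and 32.7% and 34.8%). Members moved unequally inside the PeBoW complex of Pes1, Bop1 and Wdr12, which is needed to process the large subunit rRNAs. Bop1 (chr15:76452989-76477277) was at 33.16 and 36.34 TPM in Tet2 KO cells versus 52.95 and 53.3 TPM in WT cells, with groups apart and a log2 fold change of -0.60 (adjusted p = 1.52e-07 by limma). Pes1 was at 67.0 and 67.36 TPM in Tet2 KO cells and 66.48 and 65.03 TPM in WT cells, and did not pass on the deposited scale (log2 fold change 0.03, adjusted p = 0.602 by limma). Wdr12 was at 34.24 and 35.43 TPM in Tet2 KO cells and 28.66 and 29.49 TPM in WT cells, with a log2 fold change of 0.25 (adjusted p = 0.00111 by limma) and of 0.01 relative to the median gene. Bop1 thus fell under all 6 scalings, while the direction of its partners depended on the scaling.

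The ratio of Bop1 to Pes1 was 0.495 and 0.539 in Tet2 KO, against 0.796 and 0.820 in WT. The ratio of Wdr12 to Pes1 was 0.511 and 0.526 in Tet2 KO, against 0.431 and 0.453 in WT. Both ratios were apart between the groups and moved in opposite directions on the deposited TPM. With the transcript length correction Wdr12 fell more than Pes1 (log2 fold changes -0.35 and -0.18), so that their ratio turned round, while Bop1 was still lower than Pes1, at -0.79. Exons of Bop1, Pes1 and Wdr12 overlap, in that order, Mroh1, 4930556J24Rik and Carf on the other strand. The strand setting of the counting is not given in the sources used here, so the levels of these genes carry that uncertainty. Pes1 has 2 and Wdr12 has 3 pseudogene copies of at least 90% identity over at least 200 bases.

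Mrto4 (chr4:139347435-139352576), which prepares the site of the ribosomal stalk, was at 57.24 and 61.29 TPM in Tet2 KO cells versus 81.94 and 81.95 TPM in WT cells. The groups were apart, with a log2 fold change of -0.46 (adjusted p = 9.04e-07 by limma). Nop2, an rRNA methyltransferase whose promoter is shown above, fell by 0.22, and the assembly factors Ebna1bp2 and Nop16 fell by 0.25 and 0.15. All 4 genes were lower under all 6 scalings. The call of Nop16 was lost on the deposited scale without WT replicate 1 or WT replicate 2 (adjusted p = 0.136 and 0.120 by limma).

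Among the nucleolar GTPases and late factors, the rises were smaller and most of them depended on the scaling. Gnl2 (chr4:125016585-125055380), a nucleolar GTPase, was at 71.59 and 72.98 TPM in Tet2 KO cells versus 55.18 and 55.01 TPM in WT cells. Its groups were apart, and the log2 fold change was 0.39 (adjusted p = 4.9e-06 by limma) and 0.14 relative to the median gene (adjusted p = 0.0194 by limma, 5.76e-07 to 0.191 over all alternatives). Gnl3, or nucleostemin, a related GTPase, was at 90.24 and 88.77 TPM in Tet2 KO cells and 76.25 and 76.28 TPM in WT cells, a log2 fold change of 0.23 (adjusted p = 0.000532 by limma) and of -0.02 relative to the median gene. Nip7, a late large subunit factor, was at 20.3 and 21.8 TPM in Tet2 KO cells and 18.48 and 17.77 TPM in WT cells, a log2 fold change of 0.20 (adjusted p = 0.013 by limma). Nip7 did not pass without Tet2 KO replicate 2 or WT replicate 2 (adjusted p = 0.0737 and 0.114 by limma), and was at -0.04 relative to the median gene.

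Rrp1b, a nucleolar factor of large subunit processing, rose by 0.37 on the deposited scale and was at 0.12 relative to the median gene (adjusted p = 0.0617 by limma, 1.48e-05 to 0.431 over all alternatives). The most abundant large subunit gene, Pa2g4, also called EBP1, was at 241.77 and 233.5 TPM in Tet2 KO cells and 245.23 and 247.04 TPM in WT cells. It did not pass on the deposited scale (log2 fold change -0.05, adjusted p = 0.267 by limma) but was lower relative to the median gene (-0.30). The helicase Ddx18 and the assembly factor Ppan did not pass either, at -0.08 and 0.01, and were lower relative to the median gene, at -0.33 and -0.24.

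Both genes that supply nucleotides fell, beside 19.5% of all tested genes on the deposited scale and 34.8% relative to the median gene. Nme1 (chr11:93956979-93968521), a nucleoside diphosphate kinase, was at 81.78 and 87.91 TPM in Tet2 KO cells versus 141.67 and 133.98 TPM in WT cells. With means of 84.8 ± 4.33 TPM in Tet2 KO and 138 ± 5.44 TPM in WT (SD, n = 2 each) and a log2 fold change of -0.69 (adjusted p = 4.44e-09 by limma), it had the largest fall of the 41 genes. Its neighbouring paralogue Nme2, which is not among the 41 genes, was at 298.67 and 300.36 TPM in Tet2 KO cells and 423.06 and 404.83 TPM in WT cells, a log2 fold change of -0.47. Nme1 shares exons with the read-through gene Gm20390, which has no row in the table, so the division of reads between them is uncertain. Cad, the enzyme of the first steps of pyrimidine synthesis, was at 23.28 and 24.45 TPM in Tet2 KO cells and 27.04 and 26.67 TPM in WT cells. Its log2 fold change was -0.16 (adjusted p = 0.026 by limma) and it did not pass without Tet2 KO replicate 1, WT replicate 1 or WT replicate 2 (adjusted p = 0.0871, 0.148 and 0.102 by limma), though it fell by 0.41 relative to the median gene.

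Other genes of the same pathway were also divided between the directions. Of 16 other polymerase I subunits and initiation factors, 8 rose and 5 fell on the deposited scale, against 3 higher and 7 lower relative to the median gene. The transcript length and GC correction gave 7 higher and 6 lower, beside 34.2% and 35.4% of the genes tested there. With coding length in its place, 5 were higher and 6 lower, beside 35.4% and 36.6%. Over all tested genes 54.4% were higher and 19.5% lower on the deposited scale, and 32.7% and 34.8% relative to the median gene. No difference from these shares was tested. The subunit Twistnb was at 32.75 and 29.63 TPM in Tet2 KO cells versus 17.91 and 20.58 TPM in WT cells, and the shared subunit Polr2l was at 9.63 and 9.91 TPM in Tet2 KO cells versus 16.4 and 17.09 TPM in WT cells. Ubtf, which opens the ribosomal RNA genes, was at 75.19 and 74.98 TPM in Tet2 KO cells versus 56.35 and 53.84 TPM in WT cells (log2 fold change 0.44, adjusted p = 1.33e-06 by limma, and 0.19 relative to the median gene). Rrn3, which recruits the polymerase to its promoter, was at 35.52 and 36.33 TPM in Tet2 KO cells and 35.48 and 36.59 TPM in WT cells, with overlapping groups. Rrn3 was not called on the deposited scale (adjusted p = 0.951 by limma) but was lower relative to the median gene (-0.25, adjusted p = 0.0016 by limma, 8.79e-05 to 0.956 over all alternatives).

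Of 41 other small subunit factors, 17 rose and 9 fell on the deposited scale, against 3 higher and 20 lower relative to the median gene. Of 49 other large subunit factors, 20 rose and 11 fell, against 6 higher and 29 lower relative to the median gene. RNA polymerase III subunits and factors had 10 of 15 higher and none lower on the deposited scale, and 4 higher and 2 lower relative to the median gene. Of 10 snoRNP assembly factors, 3 rose and 2 fell, and of 22 exosome and RNase MRP genes, 6 rose and 5 fell, on the deposited scale. These became 2 higher and 5 lower, and 2 higher and 13 lower, relative to the median gene. Of 17 nucleotide synthesis genes, 5 rose and 4 fell, against 2 higher and 9 lower relative to the median gene. The shares over all tested genes were 54.4% higher and 19.5% lower on the deposited scale, and 32.7% and 34.8% relative to the median gene. No list was tested against these shares.

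The ribosome's own proteins are encoded by separate genes for cytosolic and mitochondrial ribosomes. Of 82 tested cytosolic ribosomal protein genes, 76 rose and 1 fell on the deposited scale, with a median log2 fold change of 0.36. Relative to the median gene 42 were higher and 6 lower. Spike-in scaling gave 38 and 12 (all tested genes 29.6% and 37.8%), and quantile normalization 63 and 2 (34.2% and 32.7%). The transcript length and GC correction gave 77 and 1 (34.2% and 35.4%). With coding length in its place, 76 of 81 were higher and 1 lower (35.4% and 36.6%). Of 79 mitochondrial ribosomal protein genes, 11 rose and 40 fell on the deposited scale, with a median of -0.18, against 2 higher and 65 lower relative to the median gene. Over all tested genes 54.4% rose and 19.5% fell on the deposited scale, against 32.7% and 34.8% relative to the median gene. The difference between these lists and the 41 genes was not tested. Many cytosolic ribosomal protein genes have near-identical pseudogenes, and their levels are uncertain.

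Myc itself was at 163.85 and 167.76 TPM in Tet2 KO cells versus 103.11 and 103.54 TPM in WT cells, a log2 fold change of 0.68 (adjusted p = 1.07e-09 by limma) and of 0.43 relative to the median gene. Mycn was low, at 2.2 and 2.72 TPM in Tet2 KO cells and 0.07 and 0.21 TPM in WT cells. Of 10 tested genes of the Myc family and its partners, 6 rose and 3 fell on the deposited scale, against 4 higher and 4 lower relative to the median gene. Of 16 cycling markers, 5 rose and 4 fell on the deposited scale, against 1 higher and 11 lower relative to the median gene. The shares over all tested genes were 54.4% and 19.5% on the deposited scale, and 32.7% and 34.8% relative to the median gene. The part of Myc or of cell cycling in the values of the 41 genes was not tested.

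**Figure D4:**
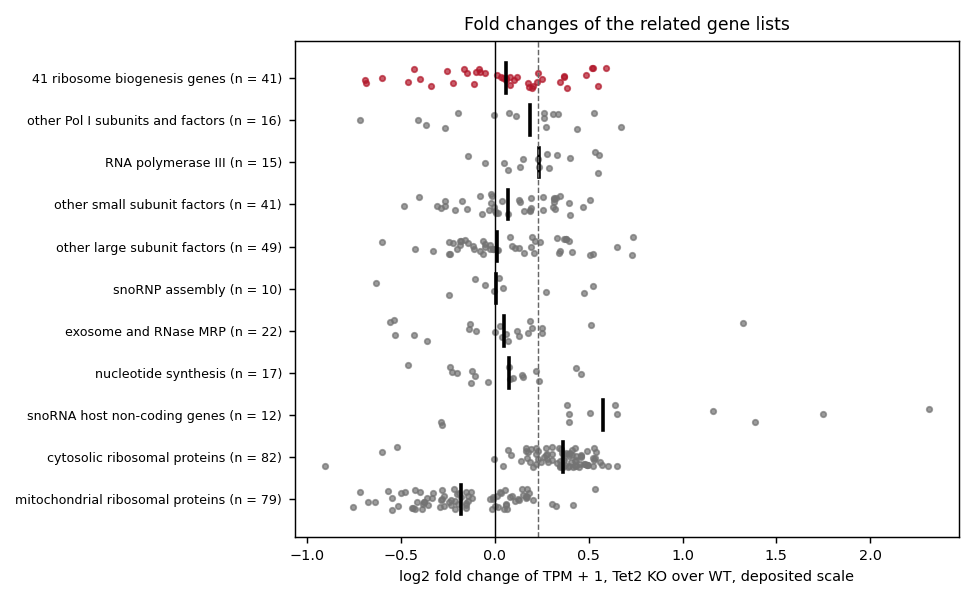
Log2 fold change, Tet2 KO over WT, of the tested genes in each list of ribosome and growth genes, with a bar at the list's median and a dashed line at the median of all tested genes. The 41 genes have a median of 0.06 on the deposited scale, cytosolic ribosomal proteins 0.36 and mitochondrial ribosomal proteins -0.18, beside 0.23 for all tested genes.

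Transcript length and GC content differed along with the calls, and their part in the results was not tested beyond the corrections. The 16 genes that were higher on the deposited scale had a median annotated transcript of 3441 bases and a median GC content of 45.9%. The 11 that were lower had 2491 bases and 51.3%, and the 14 that did not pass had 2390 bases and 51.4%. Median coding lengths were 2146.5 bases for the higher genes, 918 for the lower genes and 1633.5 for those that did not pass. With the transcript length and GC correction, 5 of the 41 genes were higher and 28 lower, beside 34.2% and 35.4% of the genes tested there, and with coding length in its place 7 were higher and 28 lower, beside 35.4% and 36.6%. Pseudogene copies of at least 90% identity over at least 200 bases exist for 16 of the 41 genes, among them Nop56, Fbl, Dkc1 and Mrto4, and 15 genes have exons that overlap a gene on the other strand, among them Rrp9, Nhp2, Nop56, Gnl2 and Gnl3. The levels of these genes are uncertain to that extent.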

How the data were processed

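Gene expression was measured in 4 libraries, 2 Tet2 KO and 2 WT. Per the labels' protocols, the RNA came from a QIAzol extraction and the library kit was a stranded mRNA kit. The submitters' processing notes name STAR, RSEM and mm10. Versions, annotation release and strand setting were not stated there. The authors deposited 1 table of TPM. TPM keep no depth, so no counting interval was computed. They are shares of a fixed total, so abundant genes and spike-in RNAs, at 5.48 and 5.33% in Tet2 KO and 4.38 and 4.43% in WT, move every other value.

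Tet2 KO was tested over WT in limma 3.58.1 (R 4.3.3, statmod 1.5.0). The values tested were log2(TPM + 1), and the variance was fitted robustly with a trend on the mean. The 11452 genes that reached 1 TPM in 2 or more libraries were tested, spike-in rows left out. P-values are two-sided, with Benjamini-Hochberg adjustment over all these genes and a threshold of 0.05. Length and GC corrections used GENCODE M21 principal transcripts and natural splines with 5 degrees of freedom, and 97.3% of tested genes had both values (93.9% for coding length). Simulated data of 11452 genes recovered 74 of 100 genes changed by 0.5 and 97 of 100 changed by 1 (log2), with 4 false calls among the unchanged genes. The simulated noise was independent and drawn from the WT libraries only. No other gene was changed and no shift of a whole library was added. The simulation therefore does not cover errors that come from scaling. The alternatives tried were pseudocounts of 0.1 and 5, a replicate block, no low-value filter or one at 5 TPM, 5 other scalings, other variance models and leaving out each library. Libraries with the same replicate number did not deviate together (r = -0.0733 over 7943 genes). With 2 libraries per group this is a single contrast and cannot exclude a shared preparation. The labels name no pairing, and none was used in the main test.

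The 41 genes and all lists were chosen with earlier results of these data known. Values in every library are given for the 6 largest called rises and falls, the most abundant gene of each role, all polymerase I genes, the 4 genes nearest the median of all genes, up to 4 called genes of a further list, and Tet2, Myc, Mycn, Rrn3 and Ubtf. Other genes with such values were added after their values were seen, where a partner or family is described. The plots were made in Python 3.11.15 (pandas 2.3.3, matplotlib 3.10.9).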

Additional observations from a re-analysis of the deposited data

How the results depend on the processing

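Scaling moved the results most. The genes higher and lower in Tet2 KO numbered 6 and 25 of the 41 under median-ratio scaling (all tested genes 3743 and 3982, median of the 41 genes -0.19), 7 and 19 under quantile normalization (3915 and 3741, -0.071), 5 and 25 under spike-in scaling (3394 and 4324, -0.24), 5 and 28 with the transcript length and GC correction (3815 and 3940, -0.18) and 7 and 28 with the coding length and GC correction (3801 and 3934, -0.21), against 16 and 11 (6225 and 2238, 0.06) on the deposited TPM. The coding length correction was chosen after seeing the data, because the annotated transcripts of Nop58 and Ncl are very long. The cause of these moves beyond the scaling itself was not tested.

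Genes whose direction turned took the following log2 fold changes. Under median-ratio scaling they were Polr1a -0.069, Polr1b -0.16, Polr1d -0.19, Ddx21 -0.025, Fbl -0.19, Nop56 -0.21, Dkc1 -0.15, Gar1 -0.13, Wdr3 -0.063, Tsr1 -0.047, Ltv1 -0.17, Pes1 -0.22, Gnl3 -0.022, Ppan -0.24 and Nip7 -0.036. Under quantile normalization they were Polr1a -0.071, Polr1b -0.16, Polr1d -0.038, Nop56 -0.0067, Dkc1 -0.062, Gar1 -0.10, Wdr3 -0.058, Tsr1 -0.017, Ltv1 -0.15, Pes1 -0.14, Ppan -0.16 and Nip7 -0.046. Under spike-in scaling they were Polr1a -0.11, Polr1b -0.20, Polr1d -0.24, Ddx21 -0.068, Fbl -0.24, Nop56 -0.25, Dkc1 -0.19, Gar1 -0.17, Wdr3 -0.10, Tsr1 -0.089, Ltv1 -0.21, Pes1 -0.26, Wdr12 -0.034, Gnl3 -0.064, Ppan -0.28 and Nip7 -0.077. With the transcript length correction they were Polr1a -0.33, Polr1b -0.19, Ncl -0.20, Ddx21 -0.15, Nop56 -0.096, Nop58 -0.077, Dkc1 -0.14, Wdr3 -0.070, Utp20 -0.16, Tsr1 -0.051, Ltv1 -0.13, Pes1 -0.18, Wdr12 -0.35, Ppan -0.11 and Nip7 -0.030. With the coding length correction they were Polr1a -0.26, Polr1b -0.27, Ncl -0.041, Ddx21 -0.14, Fbl -0.039, Nop56 -0.22, Dkc1 -0.21, Wdr3 -0.19, Utp20 -0.21, Tsr1 -0.15, Ltv1 -0.19, Pes1 -0.23, Wdr12 -0.089, Gnl3 -0.083 and Ppan -0.17.

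Leaving out 1 library gave 12 to 16 genes higher and 9 to 14 lower of the 41, a median of 0.04 to 0.07, and 5442 to 6145 higher and 1875 to 2237 lower of all tested genes. Over the 4 left-out libraries the log2 fold change of Ppan ran from -0.017 (without WT replicate 2) to 0.035. Without Tet2 KO replicate 2, Mybbp1a, Dkc1, Nolc1 and Ddx18 passed (limma, adjusted p = 0.0320, 0.0286, 0.0229 and 0.0454). With no filter on low values or no trend, Polr1a did not pass (limma, adjusted p = 0.0792 and 0.0701). Over all alternatives the adjusted p by limma ran from 0.00372 to 0.343 for Wdr3, from 0.00339 to 0.774 for Tsr1, from 2.05e-08 to 0.136 for Nop16, from 0.0102 to 0.668 for Nip7, from 1.39e-07 to 0.148 for Cad, from 2.32e-08 to 0.412 for Mybbp1a, from 0.000696 to 0.422 for Dkc1, from 6.77e-08 to 0.3 for Nolc1 and from 5.27e-07 to 0.49 for Ddx18. No other call of the 41 genes changed with the pseudocounts, the filters or the variance models.

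With the replicate number as a block, the 41 genes kept 16 higher and 11 lower, and all tested genes gave 6179 higher and 2211 lower. The labels give libraries of the same number nothing in common beyond that number. With 2 libraries per group and no depth, small differences are the least certain.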

Other observations

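Several of the 41 genes carry snoRNAs in their introns, the guide RNAs of the particles that other genes of the set encode. In the GENCODE annotation 8 of the 41 contain a snoRNA on the same strand, namely Ncl, Nop56, Nop58, Dkc1, Wdr43, Tsr1, Gnl3 and Ppan. Of these 8, 5 were higher in Tet2 KO and none was lower on the deposited TPM, and 2 were higher and 3 lower relative to the median gene. Over all tested genes these shares were 54.4% higher and 19.5% lower on the deposited TPM and 32.7% and 34.8% relative to the median gene, and the shares of the 8 genes that were higher are near them. Of the 33 genes without one, 11 were higher and 11 lower on the deposited TPM, and 4 were higher and 22 lower relative to the median gene. Among all 234 tested genes with a snoRNA inside, 159 were higher and 32 lower on the deposited TPM, and 106 and 58 relative to the median gene. Leaving out ribosomal protein genes, Snhg genes, Gas5 and the 41 genes, 183 were left. Of these, 116 were higher and 30 lower on the deposited TPM, and 76 and 53 relative to the median gene. Other non-coding hosts were not removed, and 171 of the 183 had a coding length in the annotation. All these counts are by limma at an adjusted p under 0.05 and are descriptions, with no test between the sets.

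Non-coding host genes of snoRNAs, whose introns hold the snoRNAs, were mostly higher in Tet2 KO cells on both scales. Of 12 such genes, 10 were higher and 1 was lower on the deposited TPM, with a median log2 fold change of 0.57, and 8 were higher and 1 was lower relative to the median gene. The shares over all tested genes were 54.4% and 19.5% on the deposited TPM, and 32.7% and 34.8% relative to the median gene. Snhg12 was at 162.12 and 162.36 TPM in Tet2 KO cells versus 33.8 and 29.97 TPM in WT cells, and Snhg1 was at 269.81 and 266.73 TPM in Tet2 KO cells versus 83.78 and 74.62 TPM in WT cells. The groups were apart for both genes. Their log2 fold changes were 2.31 and 1.75 on the deposited TPM and 2.07 and 1.5 relative to the median gene. The spliced RNA of such hosts is often unstable, and its level says nothing direct about the snoRNAs, which were not analysed here.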
